A study of Mus musculus with 22 samples.

Results

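The birth response of lung endothelium was set against that of lung epithelium in wild-type C57BL6 mice. Endothelial cells (sorted as CD31+) and epithelial cells (sorted as CD326+) had been taken from whole lungs at embryonic day 18.5 (E18.5), before birth, and at postnatal day 7 (P7). Each of the 4 groups had 2 RNA-seq libraries, and the 8 libraries belonged to a set of 22 that also covers CD45+ immune cells and the ages E16.5 and P28. The labels name no treatment of the mice, and the descriptions of the libraries give 1 animal or pool code that the endothelial and the epithelial library of a replicate share. For each gene, the birth change is the P7 level minus the E18.5 level on the log2(value + 1) scale, and the interaction is the endothelial birth change minus the epithelial one. Of 24344 gene rows, 12880 reached a value of 1 in at least 2 of the 22 libraries and were tested. A gene was placed in the shared class when both birth changes passed the test in the same direction, and in the opposite class when both passed in different directions. It was called limited to 1 fraction when only that fraction's change passed and the interaction passed too. These rules gave 243 shared genes (1.89% of those tested), 0 opposite genes, 24 genes limited to endothelium (0.186%) and 21 limited to epithelium (0.163%). A further 1344 genes (10.4%) passed in 1 fraction without a passing interaction, so that for them a difference between the fractions was not shown. Genes are called enriched in a fraction when their mean log2(value + 1) in the E16.5 and P28 libraries, which no birth change uses, lay at least 1 above both other fractions.

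At birth the lung changes from a fluid-filled organ in low oxygen to one that holds air, and pulmonary blood flow rises. Genes with hypoxia response elements are driven by HIF transcription factors, which prolyl hydroxylases such as EGLN3 mark for destruction when oxygen is present. In the same period the epithelium takes up lung liquid, secretes surfactant and builds airway defence, while the capillary endothelium expands and specialises.

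The deposited values are a signal with the same total of 228405 in every library, and their original unit is not given in the sources used here. Read depth was not given, but in 78.7% of the 12655 tested genes with a value above 0 in at least 10 libraries, all values were whole multiples of 1 gene-specific step (within 0.05 steps). The worth of a step differed by up to 2.83-fold among the 8 libraries, and a value of 10 corresponded to a median of 375 steps in the coarsest library, endothelial E18.5 replicate 1, and 1060.0 in the finest, epithelial P7 replicate 1. Pearson's r of 2 replicates, taken across genes, which are not independent replicates, lay between 0.9654 and 0.9855. P-values measure the spread between 2 libraries of a group, pooled over all groups. Log2 differences are given with their limma standard error (SE), and adjusted p-values come from limma with Benjamini-Hochberg adjustment over the 12880 genes. Where a call failed with 1 library left out, the library named is the one whose omission gave the highest adjusted p. Other omissions may have failed too.

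The sorting antigens matched the labels, with a limit in the endothelial libraries. Pecam1, which encodes CD31, stood at 55.3 and 34.7 in the endothelial E18.5 libraries and 64.8 and 77.8 at P7, against 2.48 and 3.01 and then 5.54 and 5.7 in epithelium. Epcam, which encodes CD326, stood at 49.4 and 44 and then 35.1 and 37.2 in epithelium, but it was also present at 10.5 and 16.2 in endothelium at E18.5 and stood there at 1.06 and 3.18 at P7. Over 14 epithelial identity genes, the median level in the endothelial libraries was 29.3% and 48.8% of the epithelial level at E18.5 and 4.53% and 11.9% at P7. None of the 14 was at 0 in any of these libraries, and their summed level in endothelium went from 326 and 544 to 41.4 and 123. In the other direction, 14 endothelial identity genes stood at a median of 5.31% and 7.07% of the endothelial level in the E18.5 epithelial libraries and at 9.15% and 8.05% at P7. The level of epithelial genes in the endothelial libraries thus moved with age, and its part in the results below was not tested. Ptprc, which encodes CD45, was at most 0.311 in all 8 libraries. A summed level of 12 immune identity genes went from 32.3 and 29.4 to 38.2 and 43.2 in endothelium. In epithelium that sum went from 15.15 and 14.15 to 13.9 and 17.1. A summed level of 13 mesenchymal markers went from 267 and 429 to 589 and 705 in endothelium and from 156 and 159.6 to 205 and 179 in epithelium. With 1 of the 8 libraries left out, the endothelial change no longer passed for Epcam (0.108 without endothelial E18.5 replicate 2), by limma adjusted p.

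**Figure D1:**
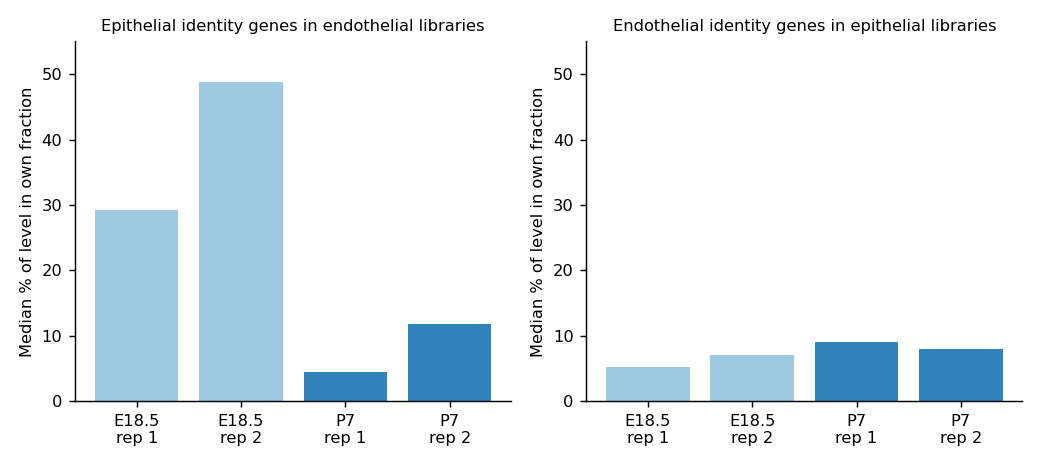
Median level of 14 epithelial identity genes in the 4 endothelial libraries (left) and of 14 endothelial identity genes in the 4 epithelial libraries (right), as a percentage of the level in the fraction they mark at the same age (vertical axis, 1 bar per library). The left bars fall from 29.3% and 48.8% at E18.5 to 4.53% and 11.9% at P7, while the right bars stay between 5.31% and 9.15%.

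In endothelium 1265 genes changed across birth (9.82% of those tested), 742 higher at P7 (5.76%) and 523 lower (4.06%). In epithelium 610 changed (4.74%), 288 higher (2.24%) and 322 lower (2.5%). The interaction passed for 50 genes (0.388%), 26 with the higher change in endothelium (0.202%) and 24 with the higher change in epithelium (0.186%); 1403 genes had an unadjusted limma p under 0.05. Blocking on the animal or pool shared by both fractions raised the number of interactions to 71 as a fixed term, with 47 of the 50 among them, and to 127 as a random term. With a pseudocount of 0.1 in place of 1 there were 6 interactions, and 16 when the other 14 libraries were left out of the fit, so that the set of interactions depends on these settings. The median interaction over all genes was 0.16. After rescaling by median-of-ratios size factors the median was 0.02, the epithelial split moved to 496 higher and 290 lower, and the interaction split moved to 28 and 67. Shared genes made up 19.2% of the endothelial calls and 39.8% of the epithelial calls, 104 higher in both (0.807% of genes tested) and 139 lower in both (1.08%). For 238 of the 243 shared genes the interaction did not pass, which does not show that both changes were equal.

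**Figure D2:**
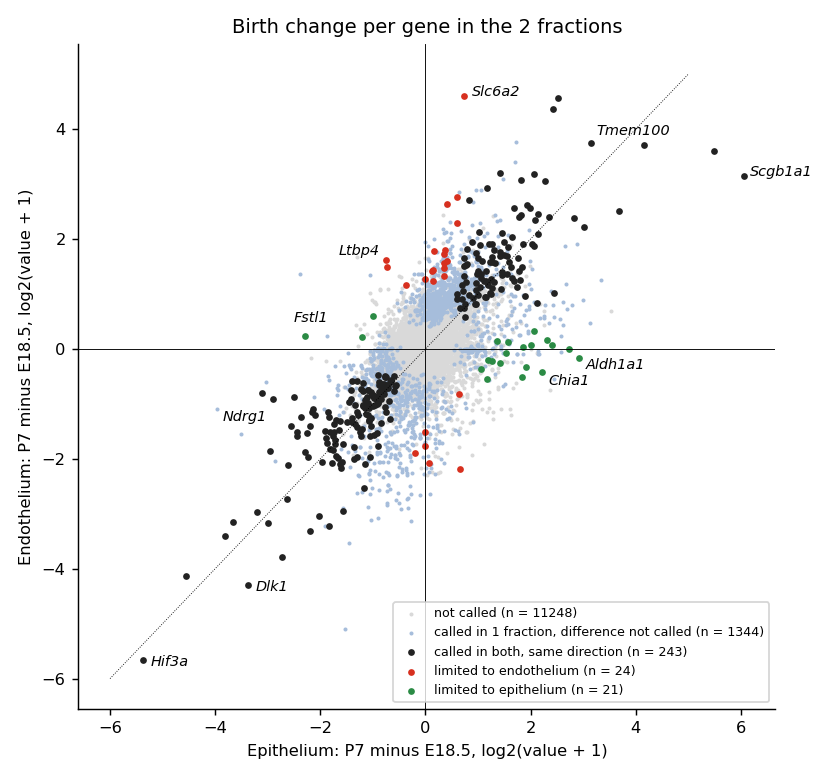
Birth change (P7 minus E18.5 on the log2(value + 1) scale) of 12880 genes in epithelium (horizontal axis) against endothelium (vertical axis), 1 point per gene, coloured by class; the dotted line marks equal changes. Genes that changed in both fractions lie along the diagonal down to Hif3a, genes limited to endothelium lie above and below the horizontal zero line near an epithelial change of 0, and no gene called in both fractions lies in the upper left or lower right quadrant.

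Most genes of the hypoxia and glycolysis list fell in both fractions. Of its 15 members, 10 fell in endothelium (4.06% of all genes did) and 9 fell in epithelium (2.5% of all genes), and 9 fell in both (1.08%). The list, like the others, was chosen with earlier results of these data known, so these counts are a description. The median birth change over the list was -1.07 in endothelium and -1.19 in epithelium, against 0.07 and -0.05 over all genes. Epas1, which encodes the HIF-2α subunit, was the member that rose in both.

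Hif3a (chr7:17031507-17062427), which encodes a HIF family member that is itself induced in low oxygen, fell the most in both fractions. Its level went from 123 and 96.3 to 0.687 and 1.75 in endothelium and from 159 and 173 to 1.87 and 4.65 in epithelium. The E18.5 and P7 libraries were far apart in both fractions. The birth changes were -5.67 ± 0.32 and -5.38 ± 0.32 (SE, n = 2 per group), with limma adjusted p of 1.39e-07 and 2.97e-07, and the interaction of -0.29 did not pass (limma adjusted p = 0.878). The fetal level was already present at E16.5, at 58 ± 7.03 (SD, n = 2) in endothelium and 139 ± 0.839 in epithelium, and at P28 it was 0.508 ± 0.45 and 0.648 ± 0.347.

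Egln3 (chr12:54178981-54203860), the oxygen-sensing prolyl hydroxylase and a HIF target, went from 15.3 and 13.8 to 0.826 and 1.16 in endothelium and from 10.1 and 9.57 to 0.164 and 0.181 in epithelium. At E18.5 both endothelial libraries were above both epithelial ones, and the part of epithelial RNA in its endothelial fall was not tested. The changes were -2.97 and -3.21 (limma adjusted p = 6.66e-05 and 5.41e-05). Slc2a1 (chr4:119108711-119137983), the GLUT1 glucose transporter, fell from 12.3 and 14.3 to 2.68 and 2.13 in endothelium and from 22.3 and 20.2 to 4.35 and 6.86 in epithelium. Here the epithelial level was higher at both ages, and neither fraction's ages overlapped.

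The enzymes of glucose use fell less steeply. Hk2, the hexokinase at the entry of glycolysis, changed by -1.48 in endothelium and -1.65 in epithelium. Pdk1, a kinase that holds pyruvate out of the mitochondrion, changed by -1.07 and -1.16, and Bnip3, a mitophagy receptor, by -1.57 and -0.98. Ldha, which makes lactate from pyruvate, went from 249.9 and 257 to 149.9 and 146 in endothelium and from 369 and 331 to 141 and 164 in epithelium, a change of -0.77 and -1.19. Pgk1, phosphoglycerate kinase, changed by -0.92 and -1.41. Egln3, Bnip3, Hk2, Pdk1 and Hif1a lie outside the rule by which genes were named and were added after their values were seen. Ankrd37, a small HIF target, fell from 28.6 and 29.9 to 6.21 and 5.39 in endothelium (limma adjusted p = 0.00532), while its epithelial change of -1.43 did not pass. Hif1a, the oxygen-regulated subunit whose control is mainly at the protein, had differences of 0.32 and -0.15, and Vegfa of -0.90 and -0.22; none of these passed. Without a single library, the endothelial change no longer passed for Hk2 (0.0959 without endothelial E18.5 replicate 2), Pdk1 (0.098 without endothelial P7 replicate 1), Ldha (0.12 without endothelial E18.5 replicate 2) and Pgk1 (0.308 without endothelial P7 replicate 2), by limma adjusted p. On leaving out 1 library, the epithelial change no longer passed for Hk2 (0.0846 without epithelial P7 replicate 1), Pdk1 (0.127 without epithelial E18.5 replicate 1), Bnip3 (0.0524 without epithelial E18.5 replicate 2) and Pgk1 (0.0667 without epithelial E18.5 replicate 1), by limma adjusted p.

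Ndrg1 (chr15:66929318-66969640), a stress gene induced in low oxygen, fell in both fractions but to different depths. It started at 10.7 and 9.85 in endothelium and 11.9 and 10.6 in epithelium and reached 5.56 and 4.53 in endothelium and 0.535 and 0.752 in epithelium. The E18.5 values nearly coincided across fractions, and the P7 values were apart. The interaction was 2.00 ± 0.24 (limma adjusted p = 0.00135) and it passed in every fit that left out 1 of the 8 libraries. At P28 the same order held, with 4.47 ± 0.232 (SD, n = 2) in endothelium and 0.232 ± 0.152 in epithelium.

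Epas1 (chr17:86753700-86833410) rose from 34.7 and 21.6 to 179 and 309 in endothelium, by 3.05 ± 0.38, and from 6.6 and 6.8 to 26.9 and 48.7 in epithelium, by 2.27 ± 0.38 (limma adjusted p = 0.00017 and 0.00277). All P7 libraries of a fraction were above all its E18.5 libraries. The epithelial level was 23.8% of the endothelial one at E18.5, and at P7 it was within the span of 6.75% to 24.1% over the endothelial identity genes.

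**Figure D3:**
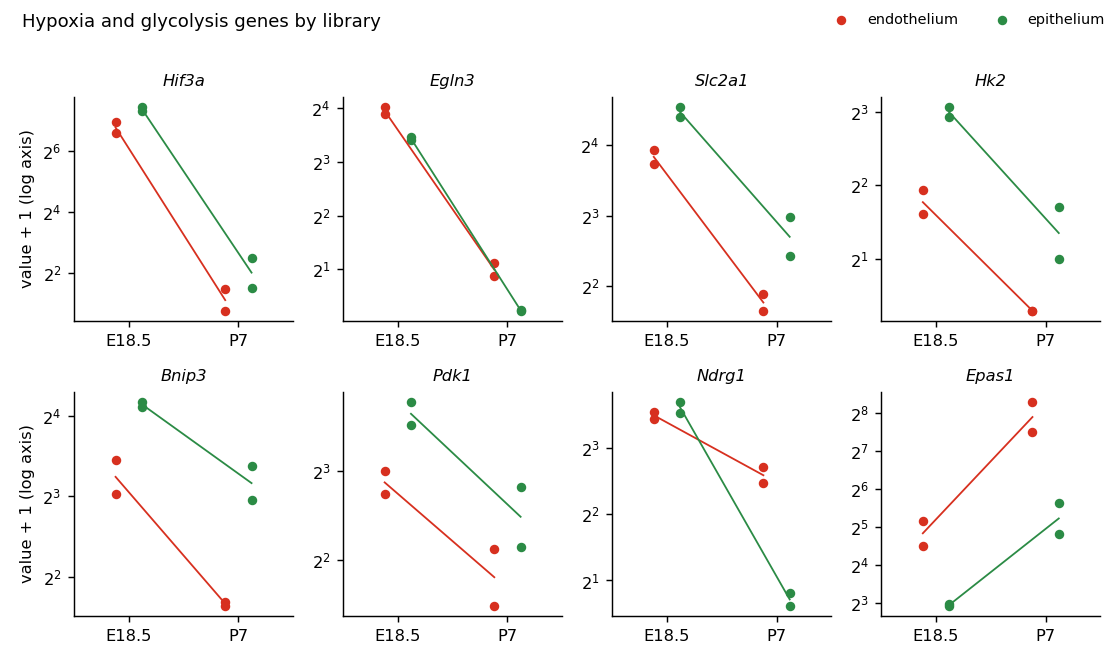
Level (value + 1, log axis) of 8 hypoxia and glycolysis genes in each of the 8 libraries at E18.5 and P7, with endothelium in red and epithelium in green; each point is a library and each line joins the group means on the log scale. Hif3a, Egln3, Slc2a1, Hk2, Bnip3 and Pdk1 fall in both fractions, Ndrg1 falls further in epithelium, and Epas1 rises in both.

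The promoters of the list were searched for ACGTG, the core letters of the hypoxia response element, on either strand. Promoter windows of 250 bases before to 50 after the gene start came from RefSeq (GRCm38.p6) and were available for 8 of the 9 members that fell in both fractions. The letters were present in 6 of the 8 (75.0%), in 4 of 5 members with a window that did not fall in both fractions (80.0%), in 28 of 103 other genes that fell in both fractions (27.2%), in 2438 of 9688 tested genes with a window (25.2%) and in 19.6% of all 32851 windows. For members that did not fall in both fractions, a match in any window of the gene was counted. For the other gene sets only the first window of each gene was searched, so these shares are not the same measure. The windows of the 4 members with the largest shared fall and a single window are shown, from 5′ to 3′ on the strand of the gene, with matches to ACGTG or its reverse complement CACGT in capitals. Hif3a has no match in its window (chr7:17062378-17062677, minus strand), Egln3 has 1 (chr12:54203825-54204124, minus strand), Slc2a1 has 1 (chr4:119108495-119108794, plus strand) and Hk2 has 2 (chr6:82774405-82774704, minus strand). A match is a description of the letters and not a measured site.
Hif3a: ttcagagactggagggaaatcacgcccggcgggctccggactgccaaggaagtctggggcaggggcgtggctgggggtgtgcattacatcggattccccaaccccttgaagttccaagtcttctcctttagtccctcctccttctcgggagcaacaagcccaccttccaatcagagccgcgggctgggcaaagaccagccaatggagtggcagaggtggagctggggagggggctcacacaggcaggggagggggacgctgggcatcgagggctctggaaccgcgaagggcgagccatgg
Egln3: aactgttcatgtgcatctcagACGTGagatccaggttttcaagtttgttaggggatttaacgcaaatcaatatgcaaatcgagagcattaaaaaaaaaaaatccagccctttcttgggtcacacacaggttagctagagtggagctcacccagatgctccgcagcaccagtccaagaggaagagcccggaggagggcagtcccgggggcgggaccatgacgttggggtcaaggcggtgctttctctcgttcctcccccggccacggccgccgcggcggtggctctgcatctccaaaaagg
Slc2a1: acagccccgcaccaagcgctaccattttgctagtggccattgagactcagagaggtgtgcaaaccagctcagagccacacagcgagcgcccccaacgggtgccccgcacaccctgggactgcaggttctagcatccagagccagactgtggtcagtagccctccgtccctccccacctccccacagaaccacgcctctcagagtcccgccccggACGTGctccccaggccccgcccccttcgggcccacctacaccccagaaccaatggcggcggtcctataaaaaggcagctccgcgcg
Hk2: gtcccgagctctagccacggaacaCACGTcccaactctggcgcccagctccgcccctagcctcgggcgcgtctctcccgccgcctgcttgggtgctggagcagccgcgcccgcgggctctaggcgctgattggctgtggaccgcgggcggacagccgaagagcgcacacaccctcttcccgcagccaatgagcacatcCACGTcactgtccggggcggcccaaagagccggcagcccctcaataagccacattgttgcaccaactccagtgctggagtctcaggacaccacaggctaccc

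Of 14 imprinted and fetal growth genes tested, 5 fell (4.06% of all genes) and 1 rose (5.76%) in endothelium. In epithelium 7 fell (2.5%), and 3 fell in both fractions (1.08%). The median change was -0.92 in endothelium and -0.79 in epithelium. Dlk1 (chr12:109452823-109463336), a paternally expressed Notch-like surface protein of fetal progenitors, went from 44.5 and 91.2 to 1.06 and 4.22 in endothelium and from 219 and 223 to 17.1 and 24.4 in epithelium. The changes were -4.30 ± 0.46 and -3.37 ± 0.46 (limma adjusted p = 3.97e-05 and 0.000468). Meg3 (chr12:109541001-109571726), the maternally expressed long noncoding RNA of the same chromosome 12 cluster, went from 66 and 60.9 to 2.61 and 5.08 and from 177 and 182 to 23.3 and 29.6. Rian, Rtl1 and Mirg, further transcripts of that cluster, changed by -3.16, -3.41 and -1.15 in endothelium and by -3.00, -3.82 and -2.16 in epithelium. All 5 named transcripts of the cluster thus fell in both fractions; Mirg was named after its values were seen. Rtl1 has an antisense partner, and without strand information their reads cannot be told apart.

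In endothelium at E18.5, Dlk1 stood at 30.8% and Meg3 at 35.4% of the epithelial level, within the span of 28.6% to 62% over the 14 epithelial identity genes. At P7 they stood at 12.7% and 14.5%, where the median over the identity genes was 7.63%. At E16.5, Dlk1 was 8.45 ± 6.02 (SD, n = 2) in endothelium against 133 ± 27.1 in epithelium. The endothelial fall of these genes moved with the fall of the epithelial identity genes in the same libraries, and the part of epithelial RNA was not tested. Over all 139 shared falls, 41 (29.5%) had an endothelial level at E18.5 above that of any epithelial identity gene relative to epithelium, and 11 were higher in endothelium than in epithelium. The share of all tested genes above that limit was not determined, so these counts do not set the shared falls apart from other genes.

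The paternally expressed growth factor Igf2 (chr7:142650766-142666816) gave another picture. It went from 260.0 and 282 to 30.6 and 34.3 in epithelium, a change of -3.02 ± 0.42 (limma adjusted p = 0.000621). In endothelium it went from 400.1 and 409 to 475 and 149, where the P7 libraries lay on either side of the E18.5 values. The interaction of 2.42 ± 0.60 did not pass (limma adjusted p = 0.108). H19, the noncoding RNA of the same locus, was as spread in endothelium at P7, at 1071 and 1568 and then 1119 and 332 in endothelium and 881 and 1069 and then 95 and 38.9 in epithelium; its epithelial change of -3.97 passed (limma adjusted p = 0.0292). Peg3, a paternally expressed zinc finger gene, rose in endothelium from 76.3 and 56.8 to a mean of 316 ± 263 (SD, n = 2), and its interaction of 1.94 did not pass (limma adjusted p = 0.335). When 1 library was left out, the endothelial change no longer passed for Peg3 (0.39 without endothelial P7 replicate 2), by limma adjusted p. With 1 of the 8 libraries left out, the epithelial change no longer passed for H19 (0.176 without epithelial P7 replicate 2), by limma adjusted p.

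Other shared falls concerned fuel storage and secreted factors. Ppp1r3b (chr8:35375739-35388139), which directs a phosphatase to glycogen, went from 36.6 and 53.1 to 1.15 and 2.11 in endothelium and from 129 and 125 to 4.04 and 4.95 in epithelium, by -4.13 and -4.55. Edn3, the peptide endothelin 3, went from 16.3 and 21.2 to 1.16 and 1.63 and from 34.9 and 37.9 to 7.92 and 8.58. Vnn1, a pantetheinase, changed by -3.23 and -1.83, and Ncf1, a subunit of the phagocyte oxidase, by -2.73 and -2.64. Of 16 sterol and fatty acid synthesis genes, 5 fell in endothelium (4.06% of all genes) and 2 in epithelium (2.5%), with medians of -0.40 and -0.26. Scd2, a stearoyl-CoA desaturase, fell in both, from 374 and 443 to 75.9 and 118 and from 950.0 and 853 to 243 and 346. In endothelium at E18.5, Ppp1r3b, Edn3 and Scd2 were all below the epithelial libraries, as epithelial identity genes were. Eno1 and Eno1b, copies of the glycolytic enolase, fell in both fractions, Eno1 with changes of -1.66 and -1.71, and share near-identical sequence, so the split between them is uncertain. Without a single library, the endothelial change no longer passed for Eno1 (0.0991 without endothelial E18.5 replicate 2), by limma adjusted p. On leaving out 1 library, the epithelial change no longer passed for Vnn1 (0.122 without epithelial P7 replicate 2), Ncf1 (0.0709 without epithelial E18.5 replicate 2), Scd2 (0.176 without epithelial E18.5 replicate 1) and Eno1 (0.0756 without epithelial P7 replicate 1), by limma adjusted p.

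Among the 104 shared rises, 52 were enriched in endothelium, 3 in epithelium, 4 in immune cells and 45 in no single fraction, where 7.6%, 4.52%, 6.48% and 81.4% of all tested genes belong to these groups. Tmem100 (chr11:90030348-90036508), a membrane protein downstream of BMP receptor ALK1 in endothelium, rose from 17.5 and 17.2 to 219 and 273 in endothelium and from 1.87 and 2.33 to 26.8 and 25.9 in epithelium. The changes were 3.74 ± 0.36 and 3.14 ± 0.36 (limma adjusted p = 1.75e-05 and 0.000133), and the epithelial level was 12.1% of the endothelial one at E18.5 and 10.7% at P7. Hpgd, which degrades prostaglandins, rose from 4.98 and 2.91 to 99.7 and 97.6 in endothelium and from 0.88 and 1.24 to 10.8 and 9.27 in epithelium. Ly6a and Chst2 behaved likewise, with changes of 2.39 and 2.83, and of 2.40 and 2.34, at an epithelial level of 13.5% and 24.7% of the endothelial one at P7. Over the 14 endothelial identity genes, the epithelial level at P7 ran from 6.75% to 24.1% of the endothelial one. Tmem100, Hpgd and Ly6a lay within that span and Chst2 just above it, and the part of endothelial RNA in their epithelial rise was not tested. Of the 104 shared rises, 65 (62.5%) had a P7 epithelial level above that span, and 19 were higher in epithelium than in endothelium. For these counts too, the share of all tested genes was not determined. When 1 library was left out, the epithelial change no longer passed for Hpgd (0.108 without epithelial E18.5 replicate 1), by limma adjusted p.

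Genes enriched in no fraction rose in both too. Cirbp (chr10:80165985-80172786), a cold-induced RNA-binding protein, went from 3.4 and 4.65 to 19.7 and 25 in endothelium and from 2.28 and 2.76 to 28.5 and 26.5 in epithelium. The P7 libraries of both fractions were above all 4 E18.5 libraries, and the endothelial level at P7 was 81.3% of the epithelial one. The changes were 2.22 and 3.02 (limma adjusted p = 0.000908 and 0.000111). At P28 its level was 7.75 ± 3.11 (SD, n = 2) in endothelium and 6.62 ± 4.08 in epithelium. Nr1d2, a repressor of the circadian clock, went from 1.48 and 0.959 to 4.8 and 6.37 and from 1.43 and 1.22 to 3.55 and 6.38. Over 15 clock genes tested, 4 rose in endothelium (5.76% of all genes), 2 rose (2.24%) and 1 fell (2.5%) in epithelium, and the medians were 0.12 and 0.03. Nr1d1 and Hlf rose in endothelium by 1.86 and 1.06, and Ciart by 1.77; Dbp rose in epithelium by 0.92 and Tef fell there, with a change of -0.65. Clock, Cry1 and Per2 had differences of 0.54, 0.19 and -0.71 in endothelium and 0.03, -0.11 and -0.38 in epithelium, with no test passed. The hour of collection is not given in the labels. Cpt1a, which carries fatty acids into mitochondria, rose from 5.74 and 3.27 to 14.4 and 23.4 and from 3.09 and 2.74 to 8.26 and 13.6. With 1 of the 8 libraries left out, the endothelial change no longer passed for Nr1d1 (0.14 without endothelial P7 replicate 2), Hlf (0.203 without endothelial P7 replicate 2), Ciart (0.0621 without endothelial P7 replicate 2) and Cpt1a (0.0718 without endothelial E18.5 replicate 2), by limma adjusted p. Without a single library, the epithelial change no longer passed for Nr1d2 (0.129 without epithelial P7 replicate 2), Dbp (0.277 without epithelial P7 replicate 2), Tef (0.272 without epithelial E18.5 replicate 1) and Cpt1a (0.162 without epithelial P7 replicate 2), by limma adjusted p.

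Of 20 antigen presentation genes, 7 rose in both fractions (0.807% of all genes). None of the 20 interactions passed by limma. At an unadjusted limma p under 0.05 there were 5 of 13 class I and 2 of 7 class II genes, against 1403 of all 12880 genes. Of 13 class I pathway genes, 11 rose in endothelium (5.76% of all genes) and 4 in epithelium (2.24%), with medians of 1.81 and 1.01. H2-K1, a class I heavy chain, went from 61.4 and 60.6 to 308 and 510.0 in endothelium and from 99.6 and 92.4 to 163 and 198 in epithelium, but its interaction of 1.78 did not pass (limma adjusted p = 0.107). B2m, the shared light chain, went from 381 and 222 to 928 and 1360.4 in endothelium and from 69.2 and 80.8 to 182 and 249 in epithelium, and Tap1, the peptide transporter, rose by 2.13 and 1.01. H2 genes are a family of near-identical copies, so the split of reads among them is uncertain. Tgtp2, an interferon-induced GTPase, went from 2.96 and 0.925 to 51.4 and 81.6 in endothelium and from 0.492 and 0.363 to 7.15 and 7.32 in epithelium. Of 7 class II genes, 3 rose in endothelium (5.76% of all genes) and 4 in epithelium (2.24%), with medians of 0.86 and 2.62. H2-Aa (chr17:34282744-34287823), a class II chain, went from 0.277 and 0.73 to 14.2 and 20.6 in endothelium and from 1.61 and 1.97 to 149 and 103 in epithelium. Cd74, the invariant chain, went from 3.37 and 8.4 to 16.8 and 72.8 and from 26.2 and 30.7 to 299 and 472. The endothelial levels of H2-Aa and Cd74 at P7 were 13.8% and 11.6% of the epithelial ones. That of H2-Ab1, another class II chain that rose in both fractions, was 28.6%. The median over the 14 epithelial identity genes was 7.63%. Macrophage markers summed to 40.8 and 28.1 in endothelium at E18.5 and to 214 and 57.4 at P7, and to 26 and 30.7 in epithelium at P7. Of that list, Fabp4, which is enriched in endothelium, made up 188 and 5.9 of the endothelial sums at P7, while C1qa was listed at 0 in all 4 endothelial libraries and Csf1r stood at 0.616 and 0.239 and then 0.815 and 1.39 there and at 0.255 and 0.162 and then 5.25 and 4.27 in epithelium. The part of macrophage RNA was not tested. On leaving out 1 library, the endothelial change no longer passed for Cd74 (0.194 without endothelial P7 replicate 2), by limma adjusted p. When 1 library was left out, the epithelial change no longer passed for B2m (0.187 without epithelial E18.5 replicate 1), Tap1 (0.0956 without epithelial E18.5 replicate 1) and Csf1r (0.126 without epithelial E18.5 replicate 1), by limma adjusted p.

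Genes limited to endothelium were mostly rises, 18 of 24, and 11 of the 18 were enriched in endothelium (7.6% of all tested genes are). Slc6a2 (chr8:92960079-93001667), the noradrenaline transporter, which takes the amine up from the circulation in lung vessels, rose from 0.684 and 0.414 to 25.9 and 51.5 in endothelium. In epithelium it went from 0.122 and 0.0943 to 0.556 and 1.16, at 2.22% of the endothelial level at P7. The endothelial change was 4.61 ± 0.26, the epithelial change 0.73 ± 0.26 and the interaction 3.88 ± 0.36 (limma adjusted p = 0.000233). This was the largest interaction among the 50 and it passed without each of the 8 libraries. At P28 the endothelial level was 62.2 ± 14.4 (SD, n = 2) and the epithelial one 0.12 ± 0.0255.

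Sema3c (chr5:17574281-17730268), a secreted guidance factor of vessel patterning, began at a like level in both fractions, at 0.796 and 1.06 in endothelium and 1.04 and 1.08 in epithelium, and reached 10.3 and 14.1 against 1.55 and 2.88. Its interaction was 2.16 ± 0.30 (limma adjusted p = 0.00384), and it too passed without each library. Bmp2, a ligand of the BMP family, went from 1.64 and 0.74 to 9.3 and 16.4 in endothelium and from 2.55 and 3.57 to 3.4 and 5.44 in epithelium. The order of the fractions was thereby exchanged, since at E18.5 epithelium was higher and at P7 endothelium was. The interaction was 2.24 (limma adjusted p = 0.0206, and 0.116 without epithelial E18.5 replicate 2).

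Ltbp4 (chr7:27305136-27337692), a matrix protein that binds latent TGF-β and helps assemble elastic fibres, rose from 17.7 and 17.5 to 61.2 and 50.8 in endothelium while it stood at 8.05 and 9.37 and then 5.14 and 4.37 in epithelium. The epithelial change of -0.75 did not pass, and the interaction was 2.36 (limma adjusted p = 0.0222, and 0.116 without epithelial E18.5 replicate 2). Arl4d, a small GTPase, had the same shape, with 5.86 and 5.6 and then 21.1 and 15.3 in endothelium and 6.24 and 6.27 and then 3 and 3.72 in epithelium (limma adjusted p of the interaction = 0.0282, and 0.121 without epithelial E18.5 replicate 1). Wars, the tryptophanyl-tRNA synthetase, rose by 1.60 in endothelium and had a difference of 0.42 in epithelium (limma adjusted p of the interaction = 0.0203, and 0.112 without epithelial E18.5 replicate 1). Smad6, an inhibitor of BMP signalling, rose by 1.34 and had a difference of 0.34 in epithelium (limma adjusted p of the interaction = 0.0222, and 0.127 without epithelial E18.5 replicate 1). With 1 of the 8 libraries left out, the endothelial change no longer passed for Arl4d (0.0521 without endothelial P7 replicate 1), by limma adjusted p.

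Lower down in level, and named after their values were seen, were Pde3a, a cyclic nucleotide phosphodiesterase, at 0.293 and 0.304 and then 3.69 and 7.59 in endothelium, and Ntrk2, the BDNF receptor, at 0.201 and 0.0858 and then 3.29 and 2.36. On the log2(value + 1) scale, Plat, tissue plasminogen activator, and Fmo1, a flavin monooxygenase, rose in both fractions and more in endothelium. All epithelial values of Plat were below 1, so the size of its interaction depends on the added 1. The endothelial level of Plat was 999% of the epithelial one at E18.5 and 1300% at P7, so the ratio between the fractions moved little. Over 20 alternatives the Plat interaction ranged from 1.02 to 1.99. Plat went from 1.11 and 1.01 to 11.4 and 13.5 in endothelium and from 0.161 and 0.0509 to 0.945 and 0.978 in epithelium, with an interaction of 1.88 (limma adjusted p = 0.00231) that passed without each library. Fmo1 rose by 3.21 and 1.42 (limma adjusted p of the interaction = 0.0484, and 0.202 without epithelial E18.5 replicate 2). Without a single library, the epithelial change no longer passed for Plat (0.109 without epithelial E18.5 replicate 2) and Fmo1 (0.0684 without epithelial E18.5 replicate 1), by limma adjusted p.

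**Figure D4:**
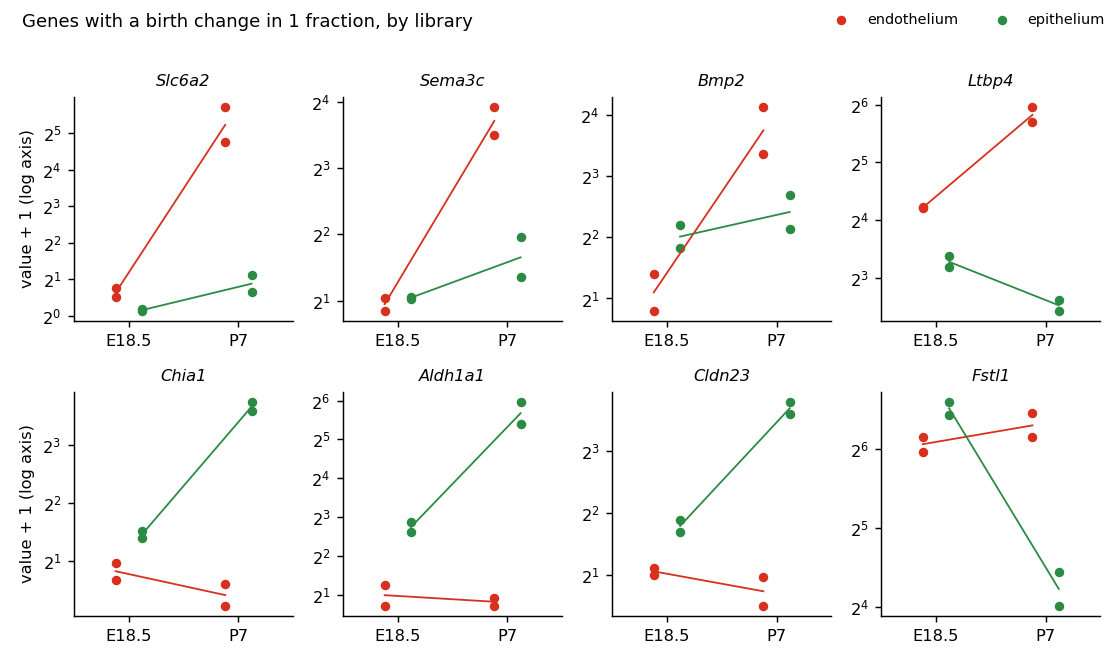
Level (value + 1, log axis) in each of the 8 libraries at E18.5 and P7 for 4 genes that rose in endothelium only (Slc6a2, Sema3c, Bmp2, Ltbp4), 3 that rose in epithelium only (Chia1, Aldh1a1, Cldn23) and Fstl1, which fell in epithelium only; endothelium is red, epithelium green, each point is a library and lines join group means on the log scale. In each panel 1 line is steep and the other is not, and the P7 libraries of both fractions are apart in all 8 panels.

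Of 15 BMP and TGF-β genes, 6 rose in endothelium (5.76% of all genes) and 1 in epithelium (2.24%), with medians of 1.01 and 0.40, and 2 of the 15 interactions passed (0.202% of all genes), those of Bmp2 and Smad6. After median-of-ratios scaling 1 of the 15 interactions passed. Of 12 Notch genes, 4 rose in endothelium (5.76% of all genes) and 2 in epithelium (2.24%). Heyl, a Notch target, rose in both, by 2.44 in endothelium and 1.82 in epithelium. Bmpr2, the BMP receptor mutated in heritable pulmonary hypertension, rose in endothelium from 48.6 and 24.4 to 121 and 172, and its interaction of 1.20 did not pass (limma adjusted p = 0.496). On leaving out 1 library, the endothelial change no longer passed for Bmpr2 (0.104 without endothelial E18.5 replicate 2), by limma adjusted p. When 1 library was left out, the epithelial change no longer passed for Heyl (0.0893 without epithelial E18.5 replicate 1), by limma adjusted p.

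Of 14 vascular tone genes, 6 rose in endothelium (5.76% of all genes) and 3 in epithelium (2.24%). No interaction passed by limma. An unadjusted limma p under 0.05 was found for 2 of the 14 and for 1403 of all 12880 genes. The median interaction was -0.26, in the direction of epithelium. Calcrl, the adrenomedullin receptor subunit, and Ece1, which activates endothelin, rose in both fractions, by 1.49 and 1.84, and by 1.40 and 1.45. Nos3, the endothelial nitric oxide synthase, rose in endothelium from 4.63 and 2.91 to 6.96 and 6.32, Ptgis, prostacyclin synthase, from 0.273 and 0.417 to 1.33 and 0.85, and Pde5a, which degrades cyclic GMP, from 2.05 and 1.59 to 4.9 and 4.78. Ednrb, an endothelin receptor, rose in epithelium by 1.58, where its level stayed below that of endothelium at both ages; its endothelial change of 1.37 missed the threshold (limma adjusted p = 0.0563). Edn1, Ace, Acvrl1, Ramp2, Ptgs1, Kcnj8 and Adm passed in neither fraction, with endothelial changes of 0.98, 0.91, 0.81, 0.97, -0.39, -0.34 and -1.22. Among 6 vein genes, 4 rose in endothelium (5.76% of all genes) and none passed in epithelium. Slc6a2 is 1 of them. Vwf, von Willebrand factor, went from 9.23 and 6.96 to 36.7 and 39.3 in endothelium and from 0.504 and 0.358 to 0.926 and 1.09 in epithelium, and its interaction of 1.62 ± 0.35 missed the threshold (limma adjusted p = 0.0659). With 1 of the 8 libraries left out, the endothelial change no longer passed for Calcrl (0.34 without endothelial E18.5 replicate 2), Nos3 (0.364 without endothelial E18.5 replicate 2), Ptgis (0.119 without endothelial P7 replicate 1) and Pde5a (0.215 without endothelial E18.5 replicate 2), by limma adjusted p. Without a single library, the epithelial change no longer passed for Calcrl (0.201 without epithelial E18.5 replicate 1), Ece1 (0.0537 without epithelial P7 replicate 2) and Ednrb (0.258 without epithelial E18.5 replicate 1), by limma adjusted p.

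Of the 6 falls limited to endothelium, Rprm, an inhibitor of the cell cycle, and Macc1 were enriched in epithelium. Rprm went from 3.81 and 8.16 to 0.174 and 0.805 in endothelium and from 7.67 and 11.8 to 20.3 and 11.8 in epithelium (limma adjusted p of the interaction = 0.0249, and 0.145 without epithelial E18.5 replicate 1). Macc1 went from 1.16 and 1.36 to 0.27 and 0.287 and from 2.7 and 2.92 to 4.09 and 5.9 (limma adjusted p of the interaction = 0.0282, and 0.129 without epithelial P7 replicate 2). Their endothelial levels at E18.5 were at a median of 53.2% of the epithelial ones, within the span of the epithelial identity genes, and the part of epithelial RNA was not tested. On leaving out 1 library, the endothelial change no longer passed for Macc1 (0.107 without endothelial E18.5 replicate 2), by limma adjusted p.

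The other 4 were chemosensory receptor genes, which with Macc1 were named after their values were seen. Olfr1000 (chr2:85607037-85611903), an odorant receptor gene, was at 1.96 and 2.91 in the 2 endothelial E18.5 libraries and listed at 0 in the other 6. Taar4 (chr10:23960494-23961537), a trace amine receptor gene, was at 2.66 and 3.8 there and at most 0.306 in the other 6. Olfr107 and Olfr1260 stood at 2.24 and 3.25 and at 1.49 and 2.29 in those libraries and at most 0.309 elsewhere among the 8. Of 1139 rows named Olfr or Taar, 23 reached 1 in both endothelial E18.5 libraries and 8 of the 23 stayed under 1 in all other 20 libraries. The summed level of these rows was 1551 and 231 in the endothelial E18.5 libraries, 349 and 364 in the epithelial ones, and between 83.3 and 134 at P7, so that endothelial E18.5 replicate 1 stood apart. All 4 receptor genes reached 1 in 2 of the 22 libraries, the endothelial E18.5 pair, and so entered the test through the group where they are high; their calls, with or without a library, are therefore no support for the difference.

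Genes limited to epithelium were rises in 18 of 21 cases, and 12 of these were enriched in epithelium (4.52% of all tested genes are). Chia1 (chr3:106113229-106132120), an acidic chitinase of the airway and alveolar lining, rose from 1.84 and 1.64 to 11 and 12.5 in epithelium and stood at 0.593 and 0.946 and then a mean of 0.332 ± 0.24 (SD, n = 2) in endothelium. The epithelial change was 2.22 ± 0.24, the endothelial change -0.41 ± 0.24 and the interaction -2.63 ± 0.34 (limma adjusted p = 0.00231), which passed without each library. At P28 it had reached 43.2 ± 8.46 (SD, n = 2) in epithelium.

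Aldh1a1 (chr19:20492715-20643465), a retinal dehydrogenase that is abundant in club cells, rose from 6.31 and 5.17 to 40.9 and 61.2 in epithelium and stood at 0.659 and 1.41 and then 0.655 and 0.907 in endothelium. Its interaction of -3.10 ± 0.63 passed narrowly (limma adjusted p = 0.0484, 0.188 without epithelial E18.5 replicate 2 and 0.0875 with the pool as a block). The tight junction genes Cldn23 and Cldn8 rose in epithelium. Cldn23 went from 2.69 and 2.24 to 12.9 and 11.1 in epithelium (interaction -2.23, limma adjusted p = 0.0149, and 0.0874 without epithelial E18.5 replicate 2). Cldn8 went from 1.71 and 1.63 to 8.26 and 8.71 (interaction -2.34, limma adjusted p = 0.0193, and 0.0874 without epithelial E18.5 replicate 2).

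Gabrp, a GABA receptor subunit of epithelia, went from 2.45 and 2.24 to 12.1 and 23 in epithelium and was at most 0.365 in endothelium (limma adjusted p of the interaction = 0.032, and 0.153 without epithelial P7 replicate 2). Secreted defence genes rose too. Bpifb1, an airway mucosal protein, went from 0.0421 and 0.195 to 5.72 and 7.26 in epithelium and was listed at 0 in 3 of the 4 endothelial libraries (limma adjusted p of the interaction = 0.0495, and 0.184 without epithelial P7 replicate 2, and 0.098 with the pool as a block). Bpifb5, its relative, went from 1.49 and 1.27 to 8.29 and 6.89, and Cxcl17, a mucosal chemokine, from 0.242 and 0.0747 to 2.88 and 4.53. Without epithelial E18.5 replicate 2, their interactions had limma adjusted p of 0.0834 and 0.0551. Krt23, a keratin, and Muc20, a membrane mucin, rose from 0.657 and 0.549 to 3.78 and 3.51 and from 1.09 and 1.32 to 3.78 and 4.19, and their interactions of -1.60 and -1.73 passed without each library. Gsta3 and Cyp2b10, enzymes of foreign compound metabolism, rose by 1.58 and 2.31 in epithelium. Their interactions of -1.46 and -2.16 passed with all libraries, but with limma adjusted p of 0.116 without epithelial E18.5 replicate 2 and 0.127 without epithelial E18.5 replicate 1 they did not. Cldn8, Bpifb5, Cxcl17, Krt23, Muc20 and Cyp2b10 were named after their values were seen.

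Over the 8 club cell genes, 4 rose in epithelium (2.24% of all genes) and 1 in endothelium (5.76%), with medians of 2.28 and -0.04. Among them 2 interactions passed, both lower (0.186% of all genes). Scgb1a1, the main club cell secretory protein, went from 158 and 170.0 to 8745 and 13729 in epithelium. In endothelium it went from 2.68 and 11.3 to 21.2 and 159, 0.8% of the epithelial level at P7, and so was placed in the shared class; the endothelial libraries of P7 differed widely. Summed over the 8 genes, epithelium went from 1090.0 and 1257 to 12400.0 and 18650.0. Of 14 airway defence genes, 3 rose in epithelium (2.24% of all genes) and 3 fell in endothelium (4.06%), with medians of 0.94 and -0.51. In the AT1 list, the flat gas exchange cells, 3 of 13 genes rose in epithelium (2.24% of all genes), among them Spock2 from 17.7 and 17.1 to 93.8 and 147. In bulk libraries a change in the number of cells of a type and a change in RNA per cell cannot be told apart. When 1 library was left out, the endothelial change no longer passed for Scgb1a1 (0.334 without endothelial P7 replicate 2), by limma adjusted p. With 1 of the 8 libraries left out, the epithelial change no longer passed for Spock2 (0.0781 without epithelial P7 replicate 2), by limma adjusted p.

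The 11 fluid clearance genes had a median change of 0.79 in epithelium and -0.92 in endothelium, and 1 interaction passed (0.186% of all genes). Of the 11, 7 were enriched in epithelium. Over all 582 epithelium-enriched genes the median change was 0.06 in epithelium and -0.80 in endothelium, and the part of epithelial RNA was not tested. Scnn1b (chr7:121865038-121918514), the β subunit of the epithelial sodium channel, rose from 0.967 and 1.31 to 4.08 and 5.38 in epithelium and stood at 0.621 and 0.802 and then 0.189 and 0.728 in endothelium (interaction -1.67, limma adjusted p = 0.0282, and 0.152 without epithelial E18.5 replicate 1). The γ subunit Scnn1g had a difference of 1.72 and the α subunit Scnn1a of 0.79 in epithelium, and neither passed. Nedd4l, the ubiquitin ligase that removes the channel from the membrane, fell in both fractions, from 2.8 and 2.66 to 0.453 and 0.69 and from 5.99 and 6.51 to 1.29 and 2.3. Sgk1, a kinase that opposes Nedd4l, rose in endothelium from 2.07 and 1.03 to 11.8 and 10.2, and its epithelial change of 0.89 did not pass. Aqp1, the water channel of capillaries, rose in endothelium from 70.1 and 73 to 222 and 346, and Aqp5, that of alveolar epithelium, had an epithelial difference of 1.61 that did not pass. Cftr, a chloride channel, and Atp1b1, a sodium pump subunit, fell in endothelium, with changes of -1.12 and -2.81, where they stood below the epithelial level at both ages. Slc12a2, a chloride cotransporter, had a difference of -0.40 in epithelium and passed in neither fraction. Without a single library, the endothelial change no longer passed for Atp1b1 (0.17 without endothelial P7 replicate 1), by limma adjusted p.

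**Figure D5:**
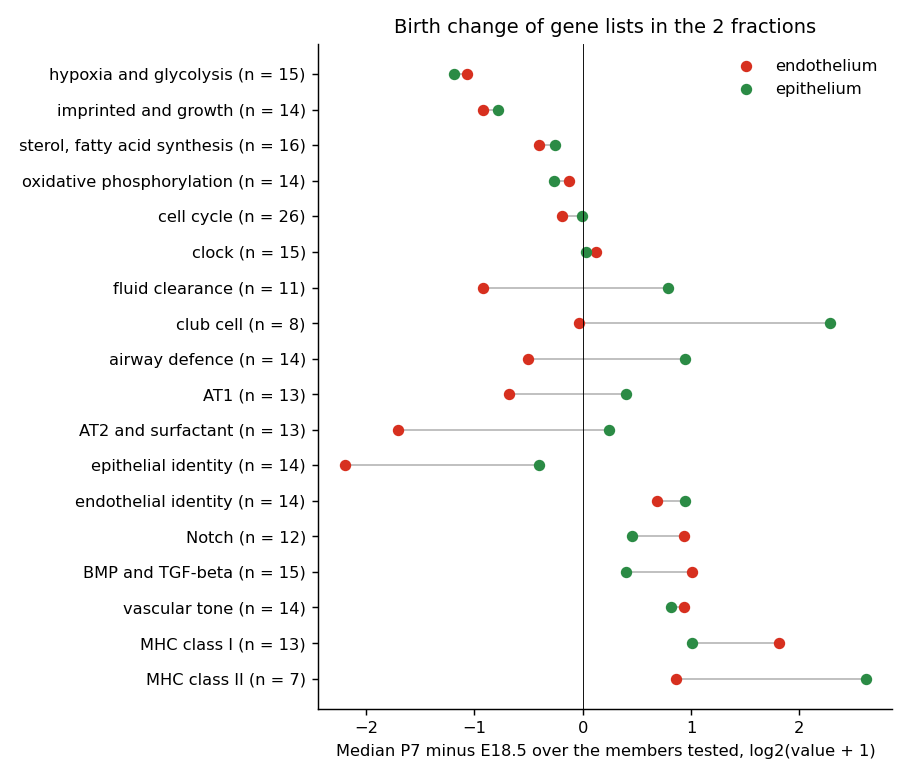
Median birth change (P7 minus E18.5 on the log2(value + 1) scale) over the tested members of 18 gene lists in endothelium (red) and epithelium (green), joined by a grey line; n is the number of members tested. The hypoxia and imprinted lists lie below 0 in both fractions, the fluid clearance, airway and alveolar lists lie lower in endothelium than in epithelium, and both antigen presentation lists lie above 0 in both.

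The falls limited to epithelium were Fstl1, Eef2k and Tmem86b. Eef2k and Tmem86b lie outside the rule by which genes were named and were added after their values were seen. The sizes of their interactions are not given here. Fstl1 (chr16:37776873-37836514), a secreted follistatin-like glycoprotein that binds BMP ligands, went from 96.2 and 86 to 20.7 and 15.1 in epithelium and from 61.8 and 70.5 to 86.9 and 70.2 in endothelium. At E18.5 both epithelial libraries were above both endothelial ones, and at P7 both were below. The epithelial change was -2.30 ± 0.24, the endothelial change 0.24 ± 0.24 and the interaction 2.54 ± 0.34 (limma adjusted p = 0.00312), which passed without each library. At P28 the epithelial level was 0.899 ± 0.342 (SD, n = 2), with 23.7 ± 2.73 in endothelium. The part of mesenchymal RNA, whose summed markers are given above, was not tested. Eef2k, a kinase of translation elongation, went from 2.73 and 2.34 to 0.376 and 0.7 in epithelium and from 1.61 and 1.33 to 1.42 and 2.43 in endothelium, and Tmem86b from 4.96 and 6.27 to 1.81 and 2.87 and from 2.28 and 2.25 to 3.64 and 4.33. On leaving out 1 library, the epithelial change no longer passed for Tmem86b (0.115 without epithelial E18.5 replicate 2), by limma adjusted p.

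No gene changed in opposite directions with limma adjusted p under the threshold in both fractions, and 39 genes did so at an unadjusted p under 0.05. Muc20 entered the opposite class in 4 alternatives. It entered that class at a pseudocount of 0.1, when all genes were kept, and with a replicate block by number or, as a random term, by pool. Its endothelial level went from 0.694 and 0.412 to 0.0254 and 0.0881 as the epithelial level rose. At E18.5 its endothelial level was 45.9% of the epithelial one, within the span of 28.6% to 62% over the 14 epithelial identity genes. The part of epithelial RNA in that fall was not tested.

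Many genes fell in endothelium with no passing interaction, and 190 of these 378 were enriched in epithelium (4.52% of all tested genes are). Of 582 epithelium-enriched genes, 213 fell (4.06% of all genes) and 4 rose (5.76%) in endothelium, with a median change of -0.80. In epithelium 48 of them rose (2.24% of all genes) and 22 fell (2.5%), with a median of 0.06. The median interaction over these genes was -0.99, and 14 passed, all lower (0.186% of all genes). Of the 14 epithelial identity genes, 11 fell in endothelium (4.06% of all genes), while in epithelium 0 passed by limma and 1 had an unadjusted p under 0.05. None of the 14 interactions passed by limma, and 12 had an unadjusted p under 0.05, against 1403 of all 12880 genes. Nkx2-1, the lung epithelial transcription factor, went from 104 and 123 to 8.31 and 29.9 in endothelium and from 307 and 352 to 182 and 275 in epithelium. Retnla, a secreted resistin-like protein, gave the steepest endothelial fall among these 582, from 58.2 and 84.5 to 0.798 and 1.38, against 169.6 and 191 and then 68.9 and 54.7 in epithelium, and its interaction of -3.57 ± 0.92 did not pass (limma adjusted p = 0.125). Of 979 endothelium-enriched genes, 293 rose in endothelium (5.76% of all genes) and 70 in epithelium (2.24%). None of 26 cell cycle genes and none of 14 oxidative phosphorylation genes passed by limma in either fraction. At an unadjusted limma p under 0.05, 0 of the cell cycle genes and 3 of the oxidative phosphorylation genes stood out in either fraction. The share of all genes at that unadjusted level in each fraction is not given here. When 1 library was left out, the endothelial change no longer passed for Nkx2-1 (0.229 without endothelial P7 replicate 1), by limma adjusted p.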

How the data were processed

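RNA-seq had been made from total RNA of sorted lung cells with Nextera XT libraries, per the labels' protocols. TopHat2 2.0.9 and the builds GRCm38 and mm10 are named in the submitters' processing notes; the sources used here name no quantifier, annotation or use of strand. The values the authors deposited are a signal whose sum is 228405 in every library. Of 24371 gene rows, 27 whose names had turned into dates (at most 0.097% of a library) were left out, and 2683 of the other 24344 were 0 throughout. limma 3.58.1 in R 4.3.3, with a mean-variance trend, was fitted to log2(value + 1) of 12880 genes that reached 1 in 2 or more libraries, with 11 group means over 22 libraries and 11 residual degrees of freedom. P-values were adjusted by Benjamini-Hochberg over all 12880 genes at a threshold of 0.05. A total of 2 E16.5 libraries carry another age in their description and were used as E16.5. The members, tests and 38 gene lists were chosen with earlier results of these data known. Genes were named by rule: per class, direction and enrichment the 4 largest changes without overlap and with a mean of at least 10, the 6 largest interactions of each sign, up to 8 genes per list, all fluid clearance, clock and vascular tone genes, and the sorting antigens; predicted, ribosomal protein and histone genes and pseudogenes were not named by size. A gene that this rule names is not reported here. At E18.5, P7 and P28, same-numbered libraries share an animal or pool code in the labels, while at E16.5 the codes of epithelium are exchanged, so that the blocks by pool and by number differ; deviations of E18.5 and P7 libraries of a code correlated across genes at 0.575 at P7 and -0.000134 at E18.5. The sequencing run differs between P7 libraries and is not given for E18.5, so age and run cannot be told apart. The fit was tested on simulated data, with 50 genes changed per fold in endothelium, all at an E18.5 level above 10. The interaction was recovered for 10% of 2-fold, 62% of 4-fold and 86% of 8-fold changes. It was also called for 8 unchanged genes. The endothelial change was recovered for 32%, 86% and 100%, and was called for 14 unchanged genes. Promoter windows are those of RefSeq GRCm38.p6, and gene positions come from the GENCODE mouse annotation. Alternatives tried were pseudocounts of 0.1 and 5, a filter at 5 or none, median-of-ratios scaling, the 8 libraries only, a fold limit of 1.5, replicate blocks and leaving out libraries.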

Additional observations from a re-analysis of the deposited data

Results flagged for a closer look

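The birth change differed between endothelium and epithelium, by the limma interaction test, for 34 genes listed here. Each has 2 libraries per group. Eef2k and Tmem86b, which are limited to epithelium, passed too but are not among these 34. Over 20 alternatives, Aldh1a1, Bpifb1 and Fmo1 passed in 4, and Arl4d, Cyp2b10, Gabrp and Macc1 in 8. The 34 genes are listed by the omission that gave the highest adjusted p where any failed, and other omissions may fail too. For 13 of them the interaction passed without each of the 8 libraries. Given as log2 differences, endothelial minus epithelial change, these were Fstl1 (2.54), Ndrg1 (2.00), Ntrk2 (1.38), Plat (1.88), Prrt4 (1.61), Sema3c (2.16) and Slc6a2 (3.88) with the higher endothelial change, and Chia1 (-2.63), Krt23 (-1.60), Muc20 (-1.73), Olfr1000 (-1.77), Olfr1260 (-1.52) and Taar4 (-2.14) with the lower one. Without epithelial E18.5 replicate 1, the interaction no longer passed (limma adjusted p between 0.0595 and 0.152) for Arl4d (2.23), Cyp2b10 (-2.16), Mras (1.53), Olfr107 (-1.70), Rprm (-2.84), Scnn1b (-1.67), Smad6 (0.99) and Wars (1.19). Without epithelial E18.5 replicate 2, the interaction no longer passed (limma adjusted p between 0.0551 and 0.202) for Aldh1a1 (-3.10), Bmp2 (2.24), Bpifb5 (-1.81), Cldn23 (-2.23), Cldn8 (-2.34), Cxcl17 (-1.92), Fmo1 (1.79), Gsta3 (-1.46), Ltbp4 (2.36) and Pde3a (1.69). Without epithelial P7 replicate 2, the interaction no longer passed (limma adjusted p between 0.129 and 0.184) for Bpifb1 (-2.73), Gabrp (-2.34) and Macc1 (-1.46). The 4 chemosensory receptor genes among them rest on levels of at most 3.8 in the endothelial E18.5 libraries. They entered the test through those 2 libraries, and the filter was not applied anew when a library was left out, so that for them passing without each library is no support.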

How the results depend on the processing

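The main counts were 1265 endothelial and 610 epithelial changes, 50 interactions, and 243 shared, 0 opposite, 24 endothelium-limited and 21 epithelium-limited genes. The interaction and the classes built on it moved with the scale of low values. With a pseudocount of 0.1 there were 6 interactions, 1 opposite gene and 3 and 1 limited genes (endothelium, then epithelium); with 5 there were 208, 1, 116 and 71; without a filter 247, 1, 137 and 91. A filter at 5 gave 385 epithelial changes, 16 interactions and 7 and 6 limited genes. Median-of-ratios scaling gave 95 interactions, 1 opposite gene and 50 epithelium-limited genes. The 8 libraries alone gave 398 epithelial changes, 16 interactions, 2 opposite genes and 7 and 5 limited genes. Against a fold limit of 1.5 there remained 184 endothelial and 83 epithelial changes, 7 interactions, 28 shared genes and 3 and 4 limited genes. Without the E16.5 libraries of another described age there were 29 interactions and 15 and 11 limited genes. The replicate block by pool gave 71 interactions as a fixed term and 127 as a random one, the latter with 1 opposite gene and 67 and 48 limited genes; the replicate block by number gave 51 interactions and 1 opposite gene, and the P7 libraries of 1 run gave 1 opposite gene. The opposite genes were Muc20 (pseudocount 0.1, no filter, random and number block), Cthrc1 (pseudocount 5), Macc1 (scaling), Prelp and Rasd1 (8 libraries) and Tspan11 (1 run), and, on leaving out 1 library, Dennd2c, Cytl1, Htr1b and Snora52. Leaving out 1 library gave 583 to 1353 endothelial changes, 197 to 665 epithelial changes, 18 to 82 interactions, 96 to 225 shared, 0 to 2 opposite, 10 to 40 endothelium-limited and 6 to 37 epithelium-limited genes. The lowest endothelial count came without endothelial E18.5 replicate 2; the lowest epithelial, interaction, shared and endothelium-limited counts came without epithelial E18.5 replicate 1. Of the calls, 349 endothelial, 139 epithelial and 16 interaction calls held without each of the 8 libraries. No call of a named gene reversed its direction in any alternative; the causes were not tested. Read depth is unknown, so that no limit from depth is given.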
